A study of Mus musculus with 36 samples.

Results

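The level of CHD8 protein was used as a continuous variable to describe how gene expression in the E12.5 mouse neocortex follows CHD8 dosage across an allelic series. All 12 E12.5 libraries of the 18 libraries in the series were used, 3 for each of 4 genotypes. Per the study's methods, each library holds the neocortex of 1 embryo. The genotypes were *Chd8*+/+ (wildtype), *Chd8*+/- (heterozygous, with 1 null allele), *Chd8* neo/neo (2 copies of a hypomorphic allele) and *Chd8* neo/- (1 hypomorphic and 1 null allele), all on a C57Bl/6J background. They were scored at 100, 50, 35 and 10 percent CHD8 protein. These scores are rounded shares of wildtype protein that rest on the immunoblots of the study, and no protein was measured here. The neo allele carries a selection cassette in an intron that disturbs splicing of *Chd8*, and the null allele lacks an exon after germline Cre recombination. For a comparison, 3 cKO libraries (*Sox1*-Cre; *Chd8* f/f) and 3 Ctrl libraries (*Chd8* f/f and *Chd8* f/+ combined) of E10.5 embryos on the same background were used. *Chd8* neo/- embryos came from crosses of *Chd8*+/- with *Chd8* neo/+ mice, and embryos of both sexes were used. The 2 lowest scores are also the 2 genotypes that carry a neo allele, so a change between 50 and 35 percent protein and a change that goes with the neo allele cannot be told apart.

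CHD8 is an ATP-dependent chromatin remodeller of the chromodomain helicase family that binds near the promoters of many active genes, and mutations in 1 human copy are among the best known causes of autism with macrocephaly. In the embryonic cortex it is expressed in dividing progenitors and in young neurons. When a regulator of this kind is reduced, a gene may follow its level in proportion, hold its expression until a threshold is crossed, or respond only when little protein is left. Alleles of graded strength allow these forms to be compared at each gene.

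Sequencing gave 38774591 to 61051667 counts in each E12.5 library, and 18810 of 46603 genes had enough counts to be tested. Levels are given as counts scaled by library size with TMM factors, in the usual unit CPM. The 10 markers of the dorsal telencephalon were all detected, with summed levels between 1407 and 1783 CPM in the 12 libraries. The 12 markers of the ventral telencephalon summed to 719 to 956 CPM, and none of the markers in any list was at 0 in all libraries. *Chd8*+/- replicate 2 had the highest summed levels of mesenchyme and meninges markers (1257 CPM against 596 to 910 CPM in the others) and of diencephalon and midbrain markers (188 CPM against 104 to 144 CPM). The sex-linked gene *Xist*, which marks female cells, was high, at 1458 to 2043 CPM, in 4 libraries. These were *Chd8*+/+ replicate 3, *Chd8*+/- replicate 1 and *Chd8* neo/neo replicates 1 and 2. In the others it lay between 1.46 and 2.49 CPM, so that no *Chd8* neo/- library was of the first kind. Genes of the Y chromosome summed to 43.7, 41.1, 120.5 and 65.8 CPM in the 4 libraries in this order. In the others they summed to 299 to 386 CPM. The reason for the higher sums in *Chd8* neo/neo replicates 1 and 2 was not tested. Sex was thus uneven over the protein scores, and its part in the trends was not tested beyond the fits with *Xist* given below.

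The reads of *Chd8* itself, summed over the whole gene, did not follow the protein scores. It was measured at 237, 235 and 239 CPM in wildtype, 165, 170.2 and 165 CPM in heterozygous, 213, 203 and 211 CPM in *Chd8* neo/neo libraries and 158, 147 and 142 CPM in *Chd8* neo/- neocortices. All 9 mutant libraries lay under all *Chd8*+/+ libraries, but *Chd8* neo/neo, with less protein than *Chd8*+/-, had more *Chd8* reads. A straight line on protein was rejected for *Chd8* (edgeR quasi-likelihood test of the departure from the line, adjusted p = 0.00162). Reads were summed over the whole gene (ENSMUSG00000053754, chromosome 14, GRCm38), so that reads of transcripts spliced into the cassette also count. By quantitative RT-PCR with primers on either side of the cassette, at an earlier stage, the study found fewer *Chd8* transcripts in *Chd8* neo/neo than in *Chd8*+/- embryos. Correctly spliced *Chd8* mRNA was not measured here.

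The linear trend test on CHD8 protein was passed by 2757 genes, which is 14.7% of the genes tested, and 5506 genes had an unadjusted p under 0.05. A gene that passes need not change evenly with protein, and the forms of the response are given below. As the protein fell, 1299 genes rose (6.91% of genes tested) and 1458 fell (7.75% of genes tested). The test is edgeR's quasi-likelihood test of the slope of the 4 genotype means on protein with an adjusted p under 0.05, and the fitted change is the log2 change along the line from 100 to 10 percent protein. The changes were small. The median fitted change was 0.28 for the genes that rose and -0.27 for those that fell, against 0.0015 over all genes tested, and it was at least 2-fold for 77 rises and 28 falls. The 3 *Chd8*+/+ and the 3 *Chd8* neo/- libraries did not overlap for 2691 of the trend genes (97.6%), which the slope largely fixes, and for 33.3% of all genes tested. The 4 genotype means were in the order of protein for 1465 of them (53.1%), against 17.9% of all genes tested. The slope weighs *Chd8*+/+ and *Chd8* neo/- most and so favours them as the 2 end means. This share is thus also fixed in part by the choice of genes and does not test for a graded response. Each library was left out in turn, and 1047 of the 2757 genes passed the test in all 12 of these fits. Single libraries moved the count, which was 1645 without *Chd8*+/+ replicate 3, 1776 without *Chd8*+/+ replicate 2, 1730 without *Chd8* neo/- replicate 1 and 1588 without *Chd8* neo/- replicate 2. In the 8 libraries with low *Xist* alone it was 1184, and with *Xist* as a covariate it was 2732, with 2510 of the 2757 among them. Genes of the X chromosome made up 2.00% of the rises and 6.04% of the falls, against 3.48% of all genes tested.

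The steps between neighbouring genotypes were unequal. Among the genes that rose, the median log2 difference from wildtype was 0.082 in heterozygous, 0.23 in *Chd8* neo/neo embryos and 0.27 in *Chd8* neo/- embryos. Among those that fell it was -0.053, -0.23 and -0.26. Over all genes tested these medians lay between 0.0011 and 0.0053. A straight line from 100 to 10 percent protein would put *Chd8*+/- at 0.15 and *Chd8* neo/neo at 0.20 for the rises, and at -0.15 and -0.19 for the falls, and a line on log2 protein would put them at 0.081 and 0.12 for the rises and at -0.079 and -0.12 for the falls. The rises in *Chd8*+/- were thus at the value of the line on log2 protein, while *Chd8* neo/neo lay beyond both lines. Both lines end at *Chd8* neo/-, whose distance from wildtype is widened by the choice of genes.

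The same order was seen library by library. The median of the rises was 0.064, 0.074 and 0.090 in the 3 *Chd8*+/- libraries, 0.21, 0.24 and 0.18 in the 3 *Chd8* neo/neo libraries and 0.26, 0.27 and 0.26 in the 3 *Chd8* neo/- libraries. For the falls it was -0.016, -0.071 and -0.070 in the heterozygous, -0.23, -0.24 and -0.19 in the *Chd8* neo/neo libraries and -0.26, -0.27 and -0.24 in the *Chd8* neo/- libraries. No library of 1 genotype overlapped with another genotype in the rises, and in the falls *Chd8*+/- replicate 1 lay at the edge of the *Chd8*+/+ libraries. *Chd8*+/- had almost no weight in the slope that chose these genes (-0.026, against -1.07 for *Chd8*+/+, 0.29 for *Chd8* neo/neo and 0.81 for *Chd8* neo/-), so that its level is the part of this pattern that the choice fixes least. It fell short of each gene's own line from *Chd8*+/+ to *Chd8* neo/- in 1131 rises (87.1%) and 1316 falls (90.3%), against 67.2% of all genes tested. Per 10 percentage points of protein, the median change of the rises was 0.016 between *Chd8*+/+ and *Chd8*+/-, 0.098 between *Chd8*+/- and *Chd8* neo/neo and 0.024 between *Chd8* neo/neo and *Chd8* neo/-.

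**Figure D1:**
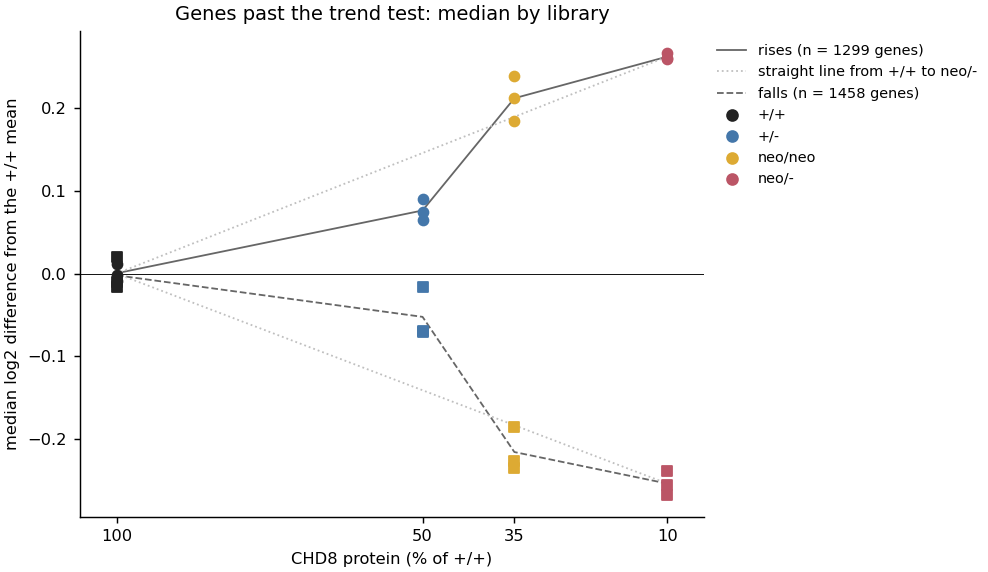
The median log2 difference from the *Chd8*+/+ mean over the genes past the trend test is plotted for each library against CHD8 protein in percent of wildtype, with circles for the 1299 rises and squares for the 1458 falls. The libraries at 50 percent lie on the inner side of the dotted straight line from *Chd8*+/+ to *Chd8* neo/- in both sets, while 2 of the 3 at 35 percent lie beyond it and *Chd8* neo/neo replicate 3 lies on or just inside it.

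A line on protein passed the test beyond a step between 50 and 35 percent for 12 genes, which is 0.0638% of genes tested (edgeR test of the line beyond the step, 1674 genes with an unadjusted p under 0.05). With the replicate number as a block 5 genes passed. The 12 genes of the fit without a block were *Chd8*, *Zcwpw1*, *Tmem209*, *Krt10*, *Sfxn1*, *Scn2b*, *Prss36*, *Nat9*, *Rmdn2*, *BC025920*, *Xrcc4* and *Mettl15*, of which 9 rose and 3 fell. The genotype means were in the order of protein for all of them but *Chd8*, whose reads were not graded with protein, as given above. *Chd8*, *Zcwpw1*, *Tmem209* and *Krt10* passed in all 12 fits with 1 library left out, *Sfxn1* in 11, *BC025920* and *Rmdn2* in 6, *Prss36* in 5, *Scn2b* and *Nat9* in 4, *Xrcc4* in 2 and *Mettl15* in none. Those of the 12 that fall outside the rule for named genes were chosen after their values were seen.

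*Zcwpw1*, a histone methylation reader known for its role in meiotic recombination, had the strongest graded rise. Its levels were 9.16, 10.1 and 8.74 CPM in wildtype, 13.2, 13.3 and 15.2 CPM in heterozygous, 19.2, 20.5 and 19.8 CPM in *Chd8* neo/neo libraries and 29.1, 26.6 and 27.1 CPM in *Chd8* neo/- libraries. No genotypes overlapped, and each genotype with less protein had a higher level. The steps were not even, as *Chd8*+/- had a log2 difference of -0.29 from the straight line between *Chd8*+/+ and *Chd8* neo/-. The edgeR test of the departure from the line had an unadjusted p of 0.00129 and an adjusted p of 0.135. The fitted change was 1.56 (SE 0.073, edgeR adjusted p = 2.5e-08), and the line beyond the step had an adjusted p of 0.000813. *Tmem209*, a nuclear envelope protein, was at 82.8, 86.0 and 83.3 CPM in wildtype, 104.1, 113 and 106.1 CPM in heterozygous, 120.3, 126 and 119 CPM in *Chd8* neo/neo libraries and 132, 133 and 134 CPM in *Chd8* neo/- libraries. It rose by a fitted 0.68 (SE 0.039, edgeR adjusted p = 3.0e-07), again with no overlap between genotypes.

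The keratin gene *Krt10* rose from 5.66, 6.04 and 6.17 CPM in wildtype to 8.29, 8.21 and 8.41 CPM in heterozygous, 9.59, 9.49 and 9.33 CPM in *Chd8* neo/neo libraries and 10.97, 11.4 and 11.4 CPM in *Chd8* neo/- libraries. *Xrcc4*, which encodes a scaffold of DNA end joining, rose from 6.50, 7.81 and 7.87 CPM to 10.1, 9.21 and 10.7 CPM, 10.8, 11.6 and 12.6 CPM, and 15.6, 15.3 and 14.7 CPM in the same order of genotypes. In both genes every *Chd8*+/- library lay over every *Chd8*+/+ library. The line beyond the step for *Xrcc4* had an adjusted p of 0.0339, and it did not pass with the *Xist* covariate, with trends in length and GC content removed or in the libraries with low *Xist* alone. Falling with the protein, *Sfxn1*, a mitochondrial serine transporter, was at 105, 108 and 111 CPM in wildtype, 90.9, 89.9 and 91.8 CPM in heterozygous, 87.4, 86.3 and 79.4 CPM in *Chd8* neo/neo libraries and 71.1, 73.2 and 71.4 CPM in *Chd8* neo/- libraries. *Scn2b*, an auxiliary subunit of voltage-gated sodium channels, was at 7.50, 7.98 and 7.63 CPM in wildtype, 4.93, 6.05 and 5.01 CPM in heterozygous, 3.50, 3.47 and 4.01 CPM in *Chd8* neo/neo libraries and 2.53, 2.71 and 2.78 CPM in *Chd8* neo/- libraries. Its fitted change was -1.52 (SE 0.10, edgeR adjusted p = 1.5e-06). The line beyond the step for *Scn2b* had an adjusted p of 0.0256 and was lost in 8 of the 12 fits with 1 library left out, while its trend passed in all 12.

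**Figure D2:**
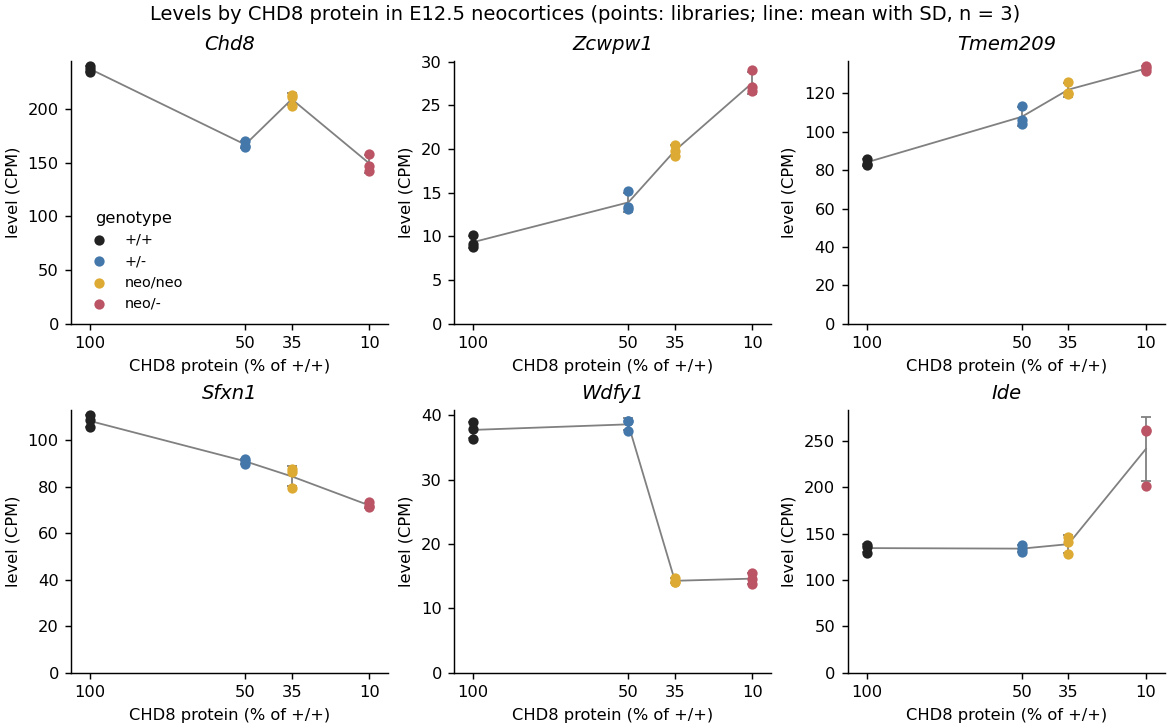
Levels in CPM are plotted against CHD8 protein in percent of wildtype for 6 genes, with 1 point per library and the mean with SD (n = 3) joined by a line. *Zcwpw1*, *Tmem209* and *Sfxn1* change at each loss of protein, *Wdfy1* drops between 50 and 35 percent, *Ide* rises between 35 and 10 percent, and the whole-gene level of *Chd8* is higher at 35 than at 50 percent.

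The promoters of *Zcwpw1* and *Xrcc4* are shown because the letters searched for were found in them. They are 300 bases of RefSeq sequence in GRCm38.p6, with 250 bases before and 50 after the start site, written 5′ to 3′ on the gene's strand. Capitals mark matches to TTCCCGC (E2F) or CAGCACC (part of the REST element) on either strand. The *Zcwpw1* window (chr5:137787552-137787851, plus strand) is that of the second of 2 listed starts and holds 1 match, to CAGCACC. That of *Xrcc4* (chr13:90089559-90089858, minus strand) holds 1 match to each.
Zcwpw1: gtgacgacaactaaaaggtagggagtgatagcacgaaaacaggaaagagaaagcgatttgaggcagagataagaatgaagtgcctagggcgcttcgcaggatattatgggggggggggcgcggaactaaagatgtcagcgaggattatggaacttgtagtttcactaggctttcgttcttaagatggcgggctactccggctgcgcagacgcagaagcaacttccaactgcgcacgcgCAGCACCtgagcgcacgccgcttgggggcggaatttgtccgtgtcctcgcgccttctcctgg
Xrcc4: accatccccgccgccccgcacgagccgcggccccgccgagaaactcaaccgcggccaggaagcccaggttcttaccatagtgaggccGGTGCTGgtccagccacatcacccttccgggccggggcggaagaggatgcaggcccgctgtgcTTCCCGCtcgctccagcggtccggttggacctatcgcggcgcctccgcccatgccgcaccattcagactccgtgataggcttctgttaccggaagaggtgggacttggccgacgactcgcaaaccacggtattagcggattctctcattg

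The largest fitted rises with ordered genotype means were in germline and erythroid genes at low levels. *Wbp2nl*, a sperm protein gene, had 3, 0 and 2 counts in *Chd8*+/+, 1, 3 and 7 in heterozygous, 8, 22 and 14 in *Chd8* neo/neo libraries and 17, 23 and 25 in *Chd8* neo/- libraries (edgeR adjusted p = 0.00115). *D1Pas1*, a testis RNA helicase gene, had 0, 5 and 3, then 4, 10 and 10, then 9, 13 and 20, and then 22, 31 and 20 counts in the same order (edgeR adjusted p = 0.00262). All *Chd8* neo/- libraries lay over all *Chd8*+/+ libraries in both, but the size of a fitted change at such counts depends on the prior count and is not given. *Hemgn* and *Icam4* are expressed in erythroid cells. *Hemgn* was at 4.99, 2.43 and 3.87 CPM in wildtype, 1.95, 9.35 and 4.78 CPM in heterozygous, 21.3, 19.8 and 6.10 CPM in *Chd8* neo/neo libraries and 14.1, 26.5 and 21.02 CPM in *Chd8* neo/- libraries, so that *Chd8* neo/neo replicate 3 lay within the range of *Chd8*+/-. Its fitted change of 2.54 (SE 0.64, edgeR adjusted p = 0.0344) passed in 3 of the 12 fits with 1 library left out, and that of *Icam4*, 1.89 (SE 0.55, edgeR adjusted p = 0.0403), in 4.

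Blood markers were higher in *Chd8* neo/- libraries but did not follow these genes in *Chd8* neo/neo libraries. The 10 blood markers in the table, mostly embryonic and adult globins, summed to 3323 to 4056 CPM in wildtype, 3344 to 4713 CPM in heterozygous, 3582 to 4264 CPM in *Chd8* neo/neo libraries and 4665 to 7254 CPM in *Chd8* neo/- libraries. *Hbb-bh1*, an early globin gene, passed the trend test with a fitted change of 1.63 (SE 0.41, edgeR adjusted p = 0.0355). Of the 10 markers 2 rose and none fell, where 6.91% of all genes tested rose and 7.75% fell. The median log2 difference of the 10 from wildtype was 0.23 in heterozygous, 0.0014 in *Chd8* neo/neo embryos and 0.65 in *Chd8* neo/- embryos. The part of the blood markers in the rises of *Hemgn* and *Icam4* was not tested, and more cells of a type and more RNA per cell cannot be told apart in bulk tissue. Outside blood, 2 of 10 dorsal telencephalon markers rose (*Pax6* and *Fezf2*), 1 of 12 ventral telencephalon markers fell (*Gad1*), and by edgeR no gene passed the trend test among the markers of cortical hem and choroid plexus, diencephalon and midbrain, optic vesicle, mesenchyme and meninges, endothelium, microglia and macrophages or surface epithelium. Of these lists, cortical hem and choroid plexus had 3 genes, endothelium 2 and microglia and macrophages 1 at an unadjusted p under 0.05, and DESeq2 called 1 gene each in the first and second of them.

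The largest ordered falls were those of *Ripk4*, *Scn2b*, *Hs6st3* and *Krt73*. *Ripk4*, a kinase of epithelial differentiation, was at 1.02, 0.83 and 0.81 CPM in wildtype, 0.76, 0.55 and 0.80 CPM in heterozygous, 0.35, 0.30 and 0.36 CPM in *Chd8* neo/neo libraries and 0.30, 0.25 and 0.34 CPM in *Chd8* neo/- libraries. The libraries with a neo allele lay under all others, with a fitted change of -1.67 (SE 0.22, edgeR adjusted p = 0.000322). *Hs6st3*, a heparan sulfate sulfotransferase gene, had a fitted change of -1.43 (SE 0.34, edgeR adjusted p = 0.0127) and *Krt73*, a keratin gene, of -1.31 (SE 0.33, edgeR adjusted p = 0.0173), both at means under 1 CPM in every genotype. They had 18.8 and 14 counts per library on average, so that these sizes are uncertain. The trend of *Hs6st3* passed in 11 of the 12 fits with 1 library left out and that of *Krt73* in 8.

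A step between 50 and 35 percent protein beyond the line passed the test for 69 genes (0.367% of genes tested), 17 of them higher and 52 lower after the step, and 3507 genes had an unadjusted p under 0.05. With the replicate number as a block 7 genes passed, all among the 69. The departure from the line in any form passed for 4 genes (0.0213% of genes tested), *Wdfy1*, *Chd8*, *Sema3c* and *Ide*, with 2772 genes at an unadjusted p under 0.05. *Wdfy1*, an endosomal adaptor of innate immune receptors, was at 36.4, 39.0 and 37.8 CPM in wildtype, 39.1, 39.1 and 37.5 CPM in heterozygous, 14.1, 14.1 and 14.7 CPM in *Chd8* neo/neo libraries and 14.5, 13.9 and 15.5 CPM in *Chd8* neo/- libraries. The libraries fell into 2 separate levels, those without and those with a neo allele, with 1 and 2 copies of the allele alike in mean (14.6 ± 0.83 and 14.3 ± 0.38 CPM, SD, n = 3). The step had an edgeR adjusted p of 1.1e-08 and *Wdfy1* was the one gene of the 69 that passed in all 12 fits with 1 library left out. *Sema3c*, a secreted axon guidance cue, was at 20.4, 24.1 and 20.6 CPM in wildtype, 26.8, 28.7 and 26.8 CPM in heterozygous, 15.9, 15.2 and 19.6 CPM in *Chd8* neo/neo libraries and 17.96, 17.8 and 19.6 CPM in *Chd8* neo/- libraries. It was highest in *Chd8*+/-, above all other libraries, and its step passed in 10 of the 12 fits with 1 library left out, but its departure from the line in any form in 2.

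The other genes of the step list include *Foxp2* and *Zeb2*, transcription factors of cortical neurons, *Ube3a*, a ubiquitin ligase linked to Angelman syndrome, *Gabra2*, a subunit of the GABA-A receptor, and *Sema3a*, another guidance cue. These genes and *Mmrn1* were chosen after their values were seen. *Ube3a* was at 184, 199.9 and 196 CPM in wildtype, 194, 192 and 196 CPM in heterozygous, 159, 161 and 162 CPM in *Chd8* neo/neo libraries and 158, 164 and 167 CPM in *Chd8* neo/- libraries. *Gabra2* was at 21.7, 23.2 and 20.9 CPM, 27.2, 18.9 and 23.3 CPM, 13.4, 9.98 and 11.6 CPM, and 10.6, 9.46 and 12.2 CPM in the same order. In both genes the libraries with a neo allele lay under all libraries without one. *Mmrn1*, which encodes a secreted adhesive protein, rose. It was at 8.61, 8.35 and 7.59 CPM in wildtype, 7.74, 7.78 and 8.28 CPM in heterozygous, 13.3, 17.6 and 16.4 CPM in *Chd8* neo/neo libraries and 14.5, 21.5 and 18.9 CPM in *Chd8* neo/- libraries. It was higher in every library with a neo allele than in every library without. *Ide*, the insulin-degrading enzyme gene on chromosome 19, had another form, at 129, 136 and 138 CPM in wildtype, 133, 130.3 and 138 CPM in heterozygous, 147, 141 and 128 CPM in *Chd8* neo/neo libraries and 262, 202 and 260.3 CPM in *Chd8* neo/- libraries, and its departure from the line passed in 2 of the 12 fits with 1 library left out (edgeR adjusted p = 0.0495 with all).

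The number of step genes was decided by single libraries. With *Chd8* neo/neo replicate 3 left out it was 1168, 292 higher and 876 lower, and the 69 genes were among them. It rose to 299 when wildtype replicate 2 was left out. It was 26 without *Chd8*+/+ replicate 1 and between 1 and 9 when any of the other 9 libraries was left out. Of the 69 genes, 66 had an adjusted p above 0.03, so that most lay close to the threshold. *Chd8* neo/neo replicate 3 was the library of its genotype with low *Xist*. With *Xist* as a covariate 4 step genes were left, and without *Chd8* neo/neo replicates 1 and 2 there were 5. The number of genes with a line beyond the step was 4 to 11 over the same left-out libraries, with 7 and 4 without *Chd8*+/+ replicates 1 and 3, and 5 without *Chd8*+/- replicate 3, *Chd8* neo/- replicate 1 or *Chd8* neo/- replicate 3. That of departures from the line rose to 635 when *Chd8* neo/neo replicate 3 was left out, and was 2 without wildtype replicate 3, *Chd8*+/- replicate 3, *Chd8* neo/neo replicate 1, *Chd8* neo/neo replicate 2 or *Chd8* neo/- replicate 3.

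**Figure D3:**
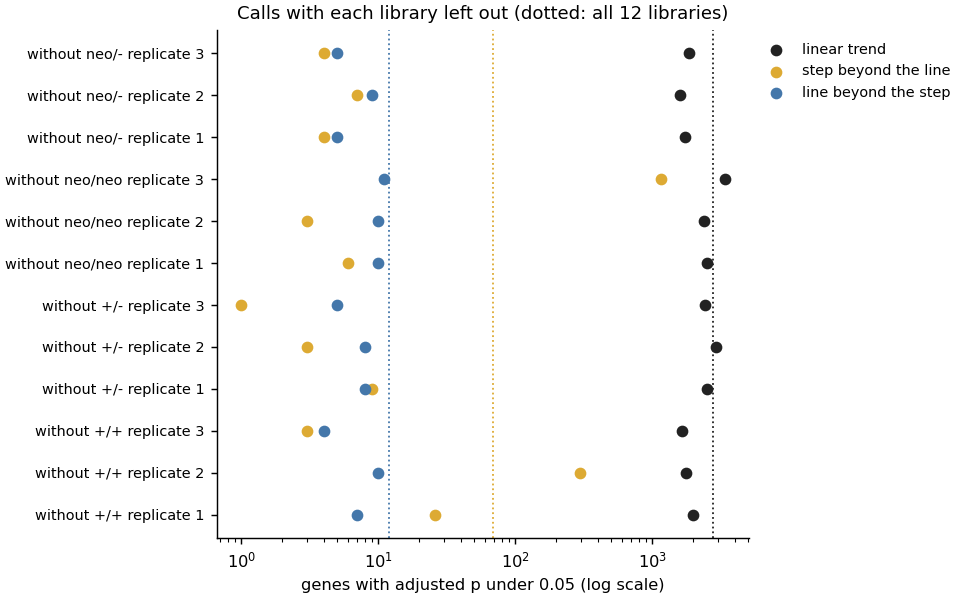
The number of genes with an adjusted p under 0.05 is plotted on a log axis for each fit with 1 of the 12 libraries left out, for the linear trend, the step between 50 and 35 percent beyond the line and the line beyond that step, with dotted lines at the counts from all 12 libraries. The trend ranges from 1588 to 3380 genes, and the step from 1 gene to the 1168 genes found without *Chd8* neo/neo replicate 3.

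To describe the form of the response without a test, 5 forms with 1 slope each were fitted to the genotype means. Of the 2020 genes that differed between genotypes in any way (10.7% of genes tested, 5176 genes at an unadjusted p under 0.05), the step between 50 and 35 percent had the least lack of fit in 1286 (63.7%), the line on protein in 327 (16.2%), the line on log2 protein in 288 (14.3%), the step between 35 and 10 percent in 78 (3.86%) and the step between 100 and 50 percent in 41 (2.03%). The step between 50 and 35 percent was also the most frequent form over all genes tested (45.5%), where the lines had 8.60% and 9.87%. By the lack-of-fit test without adjustment, a straight line was rejected for 1189 of the 2020 genes (58.9%, against 14.7% of all genes tested) and the step between 50 and 35 percent for 566 (against 7.76% of all genes tested). Neither was rejected for 508 genes, the line and not the step for 946, the step and not the line for 323, and both for 243. Of the 2757 trend genes, the step between 50 and 35 percent had the least lack of fit in 1422 (51.6%). The line on protein had it in 640 (23.2%), and that line was rejected for 953 (34.6%). A step of *Chd8*+/- away from *Chd8*+/+ with no further change was rejected for 91.7% of the 2020 genes. With adjustment over all genes, edgeR left the line rejected for the 4 genes named above, while the number was 652 by DESeq2 and 143 by edgeR without a filter on low counts, both with these 4 among them.

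**Figure D4:**
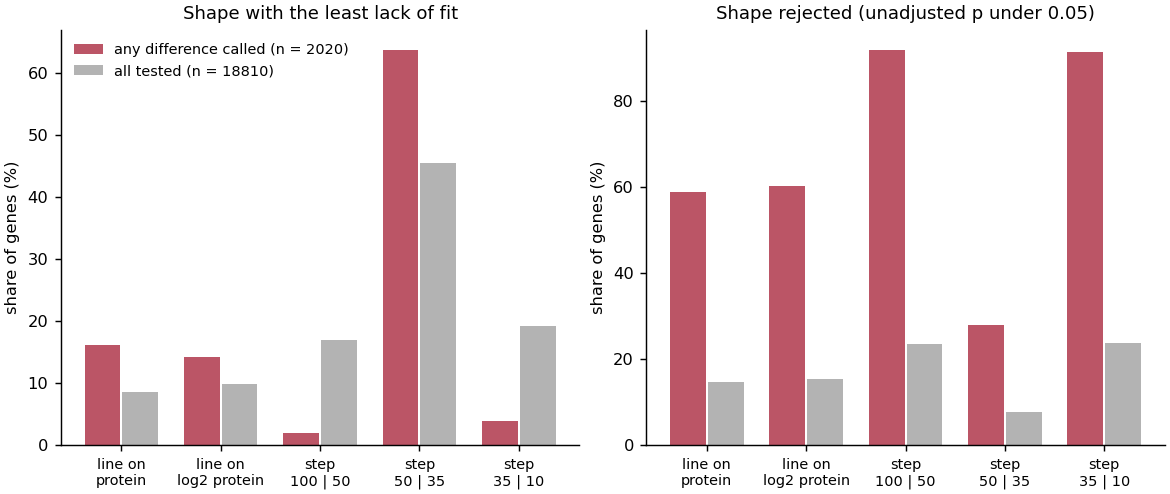
Bars give the share of genes, in percent, for which each of 5 forms had the least lack of fit (left) or was rejected at an unadjusted p under 0.05 (right), for the 2020 genes that differed between genotypes and for all 18810 genes tested. The step between 50 and 35 percent protein is the most frequent best form in both sets and the least often rejected.

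The gene lists used here and below were written from general knowledge, with earlier results of these data known. Of 54 E2F target and DNA replication genes, 22 rose (40.7%, against 6.91% of all genes tested) and 2 fell (3.70%, against 7.75%), with a median fitted change of 0.15 against 0.0015 over all genes. The median log2 difference from wildtype was 0.016 in heterozygous, 0.15 in *Chd8* neo/neo embryos and 0.12 in *Chd8* neo/- embryos. The risers include the replicative helicase genes *Mcm2*, *Mcm3*, *Mcm4* and *Mcm6*, the clamp loader genes *Rfc2* to *Rfc5*, the licensing factor *Cdt1* and *E2f1* itself, and *Tk1* and *Timeless* fell. *Pold2*, a subunit of DNA polymerase delta, was at 50.7, 57.4 and 56.2 CPM in wildtype, 60.9, 57.7 and 61.3 CPM in heterozygous, 67.6, 71.6 and 68.6 CPM in *Chd8* neo/neo libraries and 74.8, 73.2 and 73.6 CPM in *Chd8* neo/- libraries. It rose by a fitted 0.44 (SE 0.049, edgeR adjusted p = 8.7e-05). *Chaf1b*, a histone chaperone of replication, went from 60.8, 63.4 and 64.4 CPM to 67.7, 66.8 and 69.4 CPM, 77.0, 84.3 and 71.5 CPM, and 80.5, 80.5 and 78.2 CPM, with no overlap between *Chd8*+/- and the genotypes on either side.

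Of 48 DNA repair genes 12 rose, where 6.91% of all genes tested did, and none fell, with a median fitted change of 0.096. Of 34 mitosis genes 6 rose (17.6%) and none fell, with a median of 0.088, and 4 rose with trends in length and GC content removed. DESeq2 called 1 fall among the repair genes and none among the mitosis genes. *Mdc1*, a mediator of the DNA damage response, was at 201, 175 and 215 CPM in wildtype, 222, 253 and 233 CPM in heterozygous, 307, 303 and 259 CPM in *Chd8* neo/neo libraries and 302.3, 299 and 261 CPM in *Chd8* neo/- libraries, a fitted change of 0.59 (SE 0.087, edgeR adjusted p = 0.00116). *Fanci*, of the Fanconi anaemia pathway, had a fitted change of 0.34 (SE 0.052, edgeR adjusted p = 0.000880). *Cdca8*, a chromosomal passenger gene, was at 126, 119.8 and 136 CPM, 129, 124 and 127 CPM, 157, 158 and 143 CPM, and 155, 150.1 and 152 CPM in the order of genotypes, and *Cdc20*, an activator of the anaphase-promoting complex, had a fitted change of 0.27 (SE 0.045, edgeR adjusted p = 0.00163). For *Cdca8* the means of *Chd8*+/+ and *Chd8*+/- differed by less than their spread, and all libraries with a neo allele were higher.

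The *Chaf1b* promoter is shown for its 2 matches to the E2F letters TTCCCGC, in capitals, which here are read on the opposite strand. It is the RefSeq sequence of GRCm38.p6 at chr16:93883651-93883950, plus strand. These letters were found on either strand in 11.2% of 995 promoters of genes that rose, 7.19% of 1085 promoters of genes that fell and 8.02% of 12601 promoters of genes tested (first listed start of each). CACGTG, the E-box, was found in 10.95%, 9.12% and 9.53%, and CAGCACC in 6.53%, 7.56% and 7.47%.
Chaf1b: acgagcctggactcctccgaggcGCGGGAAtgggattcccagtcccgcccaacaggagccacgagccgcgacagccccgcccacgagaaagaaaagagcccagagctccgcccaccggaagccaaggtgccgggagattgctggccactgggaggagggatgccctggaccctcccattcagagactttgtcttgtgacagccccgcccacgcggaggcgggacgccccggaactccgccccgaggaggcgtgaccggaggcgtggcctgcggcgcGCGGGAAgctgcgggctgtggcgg

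A part of the neuronal genes fell with CHD8 protein. Of 55 REST target neuronal genes tested, 16 fell (29.1%, against 7.75% of all genes tested) and *Vgf*, a neuropeptide precursor gene, rose, with a median fitted change of -0.32 and median log2 differences from wildtype of -0.014 in heterozygous, -0.33 in *Chd8* neo/neo embryos and -0.24 in *Chd8* neo/- embryos. Of 38 voltage-gated channel genes 16 fell (42.1%) and none rose (median -0.36), of 32 synaptic adhesion genes 10 fell (31.3%) and none rose (median -0.25), and of 27 early neuron genes 4 fell (14.8%) and *Fezf2* rose (median -0.17). DESeq2 called no rise among the channel and adhesion genes either. Most members of each list did not pass. *Mapk8ip2*, a scaffold of JNK signalling at synapses, was at 123, 125 and 127 CPM in wildtype, 116, 113 and 109.6 CPM in heterozygous, 99.5, 105 and 103 CPM in *Chd8* neo/neo libraries and 93.0, 94.4 and 98.0 CPM in *Chd8* neo/- libraries. It fell at each loss of protein with no overlap between genotypes, by a fitted change of -0.40 (SE 0.036, edgeR adjusted p = 1.9e-05). *Cacna1b*, the pore of N-type calcium channels, was at 35.8, 38.8 and 30.2 CPM, 33.0, 31.6 and 26.8 CPM, 20.3, 21.5 and 25.3 CPM, and 21.9, 20.9 and 21.8 CPM, a fitted change of -0.74 (SE 0.099, edgeR adjusted p = 0.000562).

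In other neuronal genes the heterozygous libraries lay with the wildtype libraries or above them. *Dcx*, a microtubule protein of migrating neurons, was at 821, 952 and 849.8 CPM in wildtype, 968, 813 and 840.1 CPM in heterozygous, 627, 636 and 697 CPM in *Chd8* neo/neo libraries and 693, 631 and 753 CPM in *Chd8* neo/- libraries, a fitted change of -0.39 (SE 0.078, edgeR adjusted p = 0.00513). *Map2*, a dendritic microtubule protein, had a fitted change of -0.26 (SE 0.059, edgeR adjusted p = 0.00999), *Elavl4*, a neuronal RNA-binding protein, of -0.20 (SE 0.063, edgeR adjusted p = 0.0432), and *Lrrtm2*, a synaptic adhesion protein, of -0.50 (SE 0.11, edgeR adjusted p = 0.00855). Heterozygous and wildtype libraries overlapped for *Dcx*, *Map2* and *Elavl4*, while *Lrrtm2* was at 10.7, 10.9 and 10.2 CPM in heterozygous against 9.16, 9.93 and 8.72 CPM in wildtype, with no overlap and against the direction of its trend. Of these, the trend of *Elavl4* passed in 5 of the 12 fits with 1 library left out. Over the trend genes, the *Chd8*+/- mean lay on the side of *Chd8*+/+ away from the trend for 169 of the 1299 rises and 317 of the 1458 falls (21.7%), against 35.7% of all genes tested.

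Among 113 autism-associated genes tested, 40 fell (35.4%, against 7.75% of all genes tested) and none rose by edgeR or DESeq2, with a median fitted change of -0.17. *Chd3*, a relative of CHD8 in the NuRD complex, was at 567, 552 and 557 CPM in wildtype, 517, 483 and 493 CPM in heterozygous, 415, 419 and 478 CPM in *Chd8* neo/neo libraries and 382, 400.0 and 398 CPM in *Chd8* neo/- libraries, a fitted change of -0.51 (SE 0.052, edgeR adjusted p = 5.1e-05). *Kmt2e*, a chromatin regulator, had a fitted change of -0.39 (SE 0.044, edgeR adjusted p = 9.6e-05). Others that fell were *Ank2*, *Auts2*, *Shank3* and *Nrxn3*. The genes that fell were long, with a median span of 50.8 kb and a median exon length of 6126 bases, against 12.1 kb and 2728 bases for the genes that rose and 17.8 kb and 3398 bases over all genes tested. With trends in exon length and GC content removed from each library, 13 autism-associated genes fell and 4 rose (median -0.044), 12 REST target genes fell and 1 rose (median -0.27), 13 channel genes fell (median -0.26), 7 synaptic adhesion genes fell (median -0.17), and of the early neuron genes none passed by edgeR (median -0.13, 6 genes at an unadjusted p under 0.05). On the same fit 16 E2F target and DNA replication genes rose and 1 fell (median 0.15), and 12 DNA repair genes rose (median 0.13). That fit called 928 rises (4.93% of genes tested) and 869 falls (4.62%) in all, and 1489 of the 2757 trend genes passed in it.

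**Figure D5:**
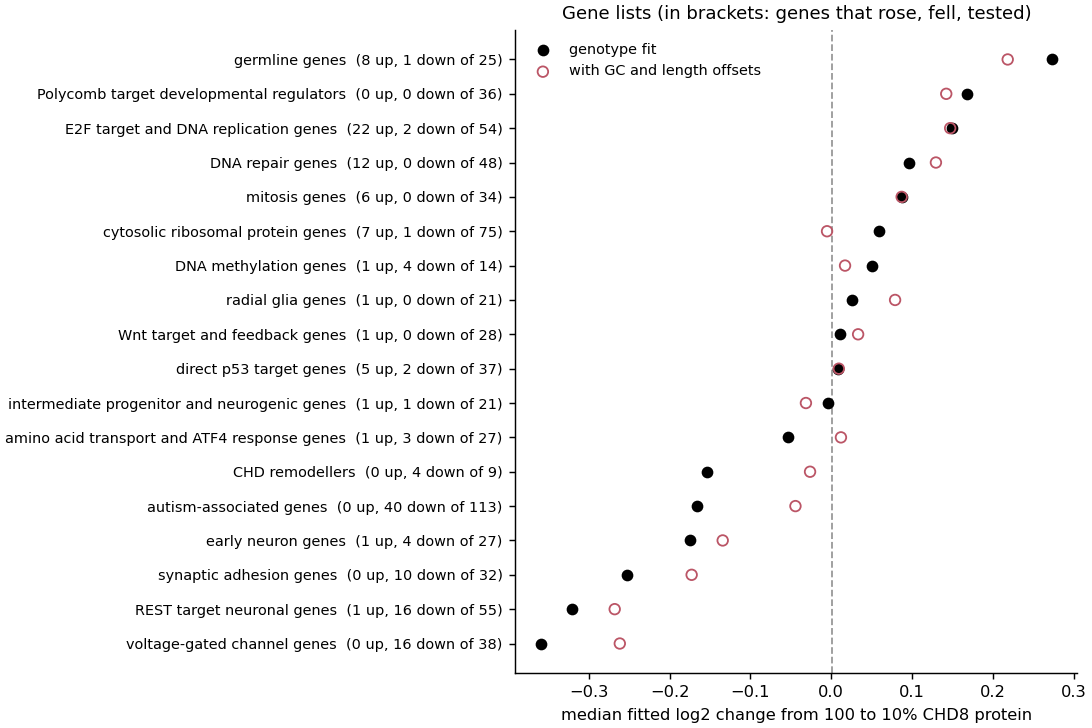
Points give the median fitted log2 change from 100 to 10 percent CHD8 protein over the tested members of 18 gene lists, filled for the genotype fit and open with trends in GC content and exon length removed, with the numbers that rose and fell in brackets and a dashed line at the median of all genes. The lists range from -0.36 for voltage-gated channel genes to 0.27 for germline genes, and the autism-associated list moves from -0.17 to -0.044.

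Chromatin and DNA methylation genes fell in part. Of 9 CHD remodeller genes other than *Chd8*, 4 fell (44.4%, against 7.75% of all genes tested), and the median fitted change of the 9 was -0.15. Those that fell were *Chd2*, *Chd3*, *Chd6* and *Chd9*. *Chd9* had a fitted change of -0.33 (SE 0.040, edgeR adjusted p = 0.000174), and with trends in length and GC content removed 2 of the 9 fell. Of 14 DNA methylation genes, 4 fell (28.6%, against 7.75% of all genes tested), among them *Tet1*, *Tet2* and *Dnmt3a*. *Uhrf1* rose (7.14%, against 6.91%), while the median of the list was 0.050, opposite in sign to most of its calls. *Tet1*, which oxidises methylated cytosine, was at 71.6, 70.2 and 71.0 CPM in wildtype, 67.9, 62.7 and 63.0 CPM in heterozygous, 61.1, 61.3 and 58.7 CPM in *Chd8* neo/neo libraries and 54.0, 54.5 and 56.6 CPM in *Chd8* neo/- libraries. No genotypes overlapped, and the fitted change was -0.36 (SE 0.042, edgeR adjusted p = 0.000139). *Dnmt3a*, a de novo DNA methyltransferase, was at 283, 267 and 294 CPM, 243, 241 and 245 CPM, 232, 215 and 214 CPM, and 193, 198 and 181 CPM, also with no overlap between genotypes.

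Of 25 germline genes tested, 8 rose (32.0%, against 6.91% of all genes tested) and 1 fell, with a median fitted change of 0.27. Besides those above, *Dazl*, *Smc1b*, *Tdrd1* and *Tdrkh* rose, and *Rec8*, a meiotic cohesin subunit, fell from 9.26, 9.84 and 8.91 CPM in wildtype to 7.97, 7.49 and 7.30 CPM in heterozygous, 5.55, 5.55 and 7.72 CPM in *Chd8* neo/neo libraries and 4.83, 4.79 and 5.59 CPM in *Chd8* neo/- libraries. *Gpat2*, a glycerol phosphate acyltransferase of the germline, was at 0.49, 0.54 and 0.49 CPM in wildtype, 0.65, 0.61 and 0.65 CPM in heterozygous, 0.90, 0.94 and 0.68 CPM in *Chd8* neo/neo libraries and 1.34, 2.36 and 1.68 CPM in *Chd8* neo/- libraries. The genotypes did not overlap, and the fitted change was 1.68 (SE 0.23, edgeR adjusted p = 0.000390).

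Several lists had few members past the trend test. Of 62 Polycomb target developmental regulators 36 had enough counts to be tested. None of the 36 passed by edgeR, with 1 gene at an unadjusted p under 0.05 and none past the threshold by DESeq2. Their median fitted change was 0.17. Some were near the floor, such as *Gata3* with a mean of 0.44 CPM in wildtype and an SE of 1.01, so that only a large change could pass there. Of 37 direct p53 target genes 5 rose (13.5%, against 6.91% of all genes tested) and 2 fell (5.41%, against 7.75%). Their median fitted change was 0.0081, and 2 rose and 3 fell with trends in length and GC content removed. Among them were *Psrc1*, a spindle protein gene, with a fitted change of 0.27 (SE 0.040, edgeR adjusted p = 0.000767), and *Kdm5b*, a histone demethylase gene, with -0.35 (SE 0.041, edgeR adjusted p = 0.000134). The cell cycle inhibitor *Cdkn1a* had means of 21.7, 21.1, 19.14 and 21.4 CPM from *Chd8*+/+ to *Chd8* neo/- (edgeR adjusted p = 0.570). Of 28 Wnt target and feedback genes *Sp5* alone passed, with a fitted change of 0.43 (SE 0.13, edgeR adjusted p = 0.0347), and the feedback gene *Axin2* had means of 76.1, 76.5, 82.4 and 75.01 CPM and a fitted change of 0.016 (SE 0.098, edgeR adjusted p = 0.940). Of 21 radial glia genes *Pax6* alone rose, by 0.15 (SE 0.043, edgeR adjusted p = 0.0323), passing in 7 of 12 fits with 1 library left out. Of 75 cytosolic ribosomal protein genes 7 rose (9.33%, against 6.91% of all genes tested) and 1 fell (1.33%, against 7.75%). Among the rises was *Rpl35a* at 0.41 (SE 0.064, edgeR adjusted p = 0.00111). The median of the list, 0.059, became -0.0052 with trends in length and GC content removed, when 1 rose and 3 fell.

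Of 27 amino acid transport and ATF4 response genes 1 rose (3.70%, against 6.91% of all genes tested) and 3 fell (11.1%, against 7.75%). *Slc1a5*, a glutamine transporter, was at 42.8, 33.4 and 38.7 CPM in wildtype, 36.7, 40.6 and 37.8 CPM in heterozygous, 53.4, 52.8 and 49.7 CPM in *Chd8* neo/neo libraries and 48.7, 51.0 and 44.9 CPM in *Chd8* neo/- libraries. The libraries with a neo allele lay over all others, and *Chd8*+/+ and *Chd8*+/- overlapped. *Slc7a1*, a cationic amino acid transporter, had a fitted change of -0.27 (SE 0.054, edgeR adjusted p = 0.00471). Of 21 intermediate progenitor and neurogenic genes *Pim1*, a serine/threonine kinase, rose from a mean of 23.99 ± 1.80 CPM through 26.4 ± 1.57 and 29.1 ± 1.41 to 30.7 ± 1.52 CPM (SD, n = 3), a fitted change of 0.36 (SE 0.065, edgeR adjusted p = 0.00245), and *Elavl4* fell. *Nlgn3*, an X-linked synaptic adhesion gene, was at 23.8, 24.9 and 24.5 CPM, 24.2, 19.9 and 20.7 CPM, 17.5, 16.6 and 18.7 CPM, and 18.5, 17.7 and 20.1 CPM, a fitted change of -0.43 (SE 0.072, edgeR adjusted p = 0.00157). *Slc9b2*, a sodium/hydrogen exchanger, had means of 3.96, 3.28, 5.99 and 4.35 CPM and did not pass the trend test (edgeR adjusted p = 0.245).

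Telencephalic vesicles of E10.5 embryos gave values of the trend genes in libraries that share no embryo with the dosage series. There, cKO embryos (*Sox1*-Cre; *Chd8* f/f, with deletion in neural cells) were compared with Ctrl embryos, which the labels give as *Chd8* f/f and *Chd8* f/+ combined, with 3 libraries each and 2 embryos pooled per library, at 49632937 to 68488879 counts. Of 18435 genes tested, 2110 differed (11.4%), 1060 up and 1050 down, a number that was 538 without cKO replicate 2, 826 without cKO replicate 3 and 951 without Ctrl replicate 3. Stage, tissue and the kind of allele differ from the E12.5 series. Of 1287 rises with CHD8 loss at E12.5 that were tested at E10.5, 21.4% were also higher in cKO, against 5.75% of genes tested, and 23 were lower. Of 1421 falls 272 genes were also lower, against 5.70% of genes tested, and 36 were higher. The 607 genes past both tests are 28.8% of the genes that differed in cKO and 22.02% of the 2757 trend genes.

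The genes that differed in cKO give a view of dosage at E12.5 in genes that were not chosen on the E12.5 libraries. Of the 1046 genes higher in cKO that were tested at E12.5, the median log2 difference from wildtype was 0.034 in heterozygous, 0.074 in *Chd8* neo/neo embryos and 0.072 in *Chd8* neo/- embryos, where a straight line to the last value would give 0.040 and 0.052. Of the 1046 genes lower in cKO the medians were -0.055, -0.070 and -0.11, where the line would give -0.061 and -0.079. In this set the heterozygous medians thus lay just inside the straight line in both directions.

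Among single genes, the log2 difference of cKO from Ctrl was 0.73 for *Zcwpw1* (SE 0.12, edgeR adjusted p = 0.00499), 0.63 for *Tmem209* (SE 0.070, edgeR adjusted p = 0.000435), 0.46 for *Mdc1* (SE 0.067, edgeR adjusted p = 0.00224) and 0.34 for *Pold2* (SE 0.056, edgeR adjusted p = 0.00413). It was -0.63 for *Scn2b* (SE 0.11, edgeR adjusted p = 0.00526), -0.57 for *Mapk8ip2* (SE 0.070, edgeR adjusted p = 0.000833) and -0.32 for *Chd3* (SE 0.068, edgeR adjusted p = 0.0135). *Wdfy1* had a difference of -0.17 (edgeR adjusted p = 0.241), *Sema3c* of 0.26 (edgeR adjusted p = 0.139) and *Tet1* of 0.0042 (edgeR adjusted p = 0.982). Of the 37 direct p53 target genes, 27 were higher and 2 lower in cKO, and whether this differs from the 5 rises and 2 falls of the E12.5 trend was not tested. Of the 54 E2F target and DNA replication genes, 3 were higher and 10 lower in cKO. Of the 112 autism-associated genes tested at E10.5, 7 were higher and 8 lower. Over all genes tested at E10.5, 5.75% were higher and 5.70% lower in cKO.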

How the data were processed

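Neocortices of E12.5 embryos (4 genotypes, 3 libraries each) and telencephalic vesicles of E10.5 embryos (3 cKO and 3 Ctrl libraries) were used. Per the study's methods and the submitters' processing notes, the authors selected mRNA, sequenced it as paired reads over 2 lanes, checked reads with FastQC 0.11.2, trimmed them with Trim Galore 0.4.1, aligned them to GRCm38 with TopHat2 2.1.0 and counted them with featureCounts 1.5.0. The header of the E12.5 table gives no strand option, so reads of overlapping and antisense genes cannot be told apart, and genes of near-identical sequence can share reads. The deposited values are raw counts per gene and run. The 2 runs of each library were summed. All columns of samples were used. Symbols matched 46005 of the 46603 identifiers.

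Tests on the counts used edgeR 4.0.16 under R 4.3.3 (filterByExpr, TMM scaling, robust quasi-likelihood fits). The 12 E12.5 libraries were fitted together with 4 genotype means, which leaves 8 residual degrees of freedom. Contrasts of these means tested any difference, the slope on protein, the departure from the line, the step between 50 and 35 percent beyond the line and the line beyond that step. All genes tested entered the Benjamini-Hochberg adjustment, and an adjusted p under 0.05 passed. Forms of the response were compared by their lack-of-fit F without adjustment. Replicates came from different litters per the study's methods. The fits were tested on simulated counts.

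The comparison, gene lists and named genes were chosen with earlier results of these data known, and the lists were written from general knowledge. Named were *Chd8* and genes the study names at E12.5, the 4 largest rises and falls past the trend test with ordered genotype means and at least 10 counts per library on average, the 3 genes with the smallest p in each test of form, and the 2 with the smallest trend p in each gene list. *Ide*, *Ube3a*, *Gabra2*, *Mmrn1*, *Sfxn1*, *Krt10*, *Xrcc4*, *Cdkn1a* and list members named without values were chosen after their values were seen. Alternatives were DESeq2 1.42.0, RLE and upper quartile scaling, no filter, each run alone, the replicate number as a block, *Xist* as a covariate, no X and Y genes, GC and length offsets (loess, span 0.5), other dose scores, a straight-line design, and each genotype and library left out. Leaving out *Chd8* neo/neo replicates 1 and 2 together and using the 8 libraries with low *Xist* were added after seeing the data. Figures were drawn with matplotlib 3.10.9. Some genes that the rule names are not reported here.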

Additional observations from a re-analysis of the deposited data

How the results depend on the processing

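The direction of the trend was the same for every named gene but *Axin2* in all alternatives run. Its fitted change turned to -0.020 with the log2 dose score, -0.13 without genotype *Chd8*+/+, -0.019 without *Chd8* neo/neo, -0.036 without *Chd8* neo/neo replicates 1 and 2 together, -0.033 in the libraries with low *Xist*, and it lay between -0.021 and 0.056 with 1 library left out, under 0 in 3 of these fits. Of the results for single genes, 1348 kept their side of the threshold and 140 lost it, most often for *Elavl4*, *Hemgn*, *Pax6*, *Icam4*, *Sp5* and *Sema3c*. The 2757 trend genes became 1797 with GC and length offsets, 1818 with the straight-line design, 780 without *Chd8*+/+, 203 without *Chd8* neo/- and 1184 with low *Xist* alone. DESeq2 gave 3178, of which 2635 are shared, and the block on replicate number 2354. The cause of these moves was not tested, except that leaving out a genotype leaves fewer libraries and a shorter range of protein.

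Genes with any difference numbered 3300 with DESeq2, 1170 with GC and length offsets, 1279 without *Chd8* neo/neo replicates 1 and 2 and 424 with low *Xist* alone. Departures from the line numbered 652 with DESeq2, 143 without a filter and 15 with run a, and 2 each with upper quartile scaling, the replicate block, the log2 and rank scores and low *Xist* alone. Steps beyond the line numbered 897 with DESeq2, 116 with RLE and 17 with upper quartile scaling, 349 without a filter, 112 with run b, 7 with the replicate block, 4 with the *Xist* covariate, 6 with GC and length offsets, 5 without *Chd8* neo/neo replicates 1 and 2 and 2 with low *Xist* alone. Lines beyond the step numbered 102 with DESeq2, 32 without a filter, 4 and 6 with runs a and b and 5 with the replicate block. With 1 library left out, the counts ranged from 1109 (without *Chd8* neo/- replicate 2) to 3139 (without *Chd8* neo/neo replicate 3) for any difference, with 1279 without *Chd8*+/+ replicate 3, 1122 without *Chd8* neo/- replicate 1 and 1263 without *Chd8* neo/- replicate 3, 1588 to 3380 for the trend, 2 to 635 for the departure, 1 to 1168 for the step, 4 to 11 for the line beyond the step, and 538 (without cKO replicate 2) to 2483 for cKO at E10.5.

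Replicate numbers were shared between genotypes. Deviations of same-numbered libraries from their genotype means correlated by 0.11, 0.20 and 0.20 between *Chd8*+/- and *Chd8* neo/neo, over 0.1 in every pair, but not in every pair of any other genotypes. The labels do not say what the numbers stand for, and whether they link these 2 genotypes was not tested. In these 2 genotypes both replicates 1 were high in *Xist* (1458 and 2011 CPM) and both replicates 3 low (2.03 and 2.49 CPM). The fit with the replicate block is given beside the step and the line. In it the trends of *Hemgn*, *Icam4* and *Elavl4* no longer passed. The scores rest on rounded protein levels, no genotype lies between 100 and 50 percent, and single genes at low counts such as *Wbp2nl* are limited by depth.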
